A study of Mus musculus with 44 samples.

Results

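The Egr family loci are the 4 mouse genes Egr1, Egr2, Egr3 and Egr4, each with 50 kb of flanking DNA on either side, followed by ATAC-seq in cultured cortical neurons. ATAC-seq maps accessible chromatin by where a transposase can insert. The genome was divided into 352014 sites of 500 bp, centred on peak summits of the 19 autosomes, and 183 of them overlapped these loci. Each was assigned to the Egr gene whose locus it overlapped, also where it lay in or beside another gene. Egr1 held 59 of the 183 sites, Egr2 held 32, Egr3 held 51 and Egr4 held 41. The annotation of the same build lists 20665 protein-coding genes on those autosomes.

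The 44 libraries came from primary neurons of E16.5 mouse cortex and form 22 groups of 2. Every culture had been silenced overnight with 1 µM tetrodotoxin, a sodium channel blocker, and 100 µM D-AP5, an NMDA receptor antagonist. Depolarized wells then received 50 mM KCl, unstimulated wells had their medium taken off and put back, and DNase at 200 U/mL was present in the wells for 30 min. In the drug experiment (16 libraries, 7 days in vitro, DIV7), neurons of wild-type mice received 100 nM FHT1015, described in the labels as an inhibitor of the BAF ATPase, or 0.1% DMSO, for 10 or 30 min, with or without KCl. In the Arid2 experiment (8 libraries, DIV7), neurons carried guide RNAs against Arid2 (Arid2KO), a subunit of the PBAF form of the BAF complex, which moves nucleosomes with the energy of ATP, or a non-targeting guide (NT), each with KCl for 30 min or unstimulated. At DIV18 (20 libraries), neurons carried guides against the core BAF subunit Smarcc2 together with Smarcc2 S586E, Smarcc2 S586A, wild-type Smarcc2 (WT) or an empty vector, or carried the NT guide, each with KCl for 30 min or unstimulated. Glutamate at a serine (S586E) is often used to imitate a phosphate, and alanine (S586A) cannot carry one. The knockouts are bulk cultures that received guides, and the lists used here do not show how much of either protein was lost. The labels count each embryo's cortex as a biological replicate but tie no library to an embryo, so the p-values measure only the spread between libraries, which may be technical.

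EGR proteins are transcription factors with C2H2 zinc fingers that bind a GC-rich element. Their genes are immediate early genes: in neurons, calcium entry and ERK signalling act on SRF with its ternary complex factors and on CREB, already bound at the promoters, and transcription starts without new protein synthesis. Egr1 is linked to synaptic plasticity and memory, Egr2 to myelination and hindbrain patterning, Egr3 to muscle spindle development and to long-lasting plasticity, and Egr4 to neuronal maturation and male fertility. The co-repressors Nab1 and Nab2 bind EGR1, EGR2 and EGR3 and dampen their activity.

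The promoter sequences are shown because SRF and CREB are the textbook inputs to these genes. The RefSeq promoter table for build GRCm38.p6 held Egr2, with 5 starts, and Egr4, with 1. The Egr2 window below, on the + strand at chr10:67537793-67537822, spans 76 to 47 bases before the start at 67537869, and its capitals mark a CArG box, the SRF element, and a CRE core, the CREB element. The Egr4 stretch is on the − strand at chr6:85513590-85513839, the 250 bases before its start, and its capitals mark 2 CRE cores.
Egr2: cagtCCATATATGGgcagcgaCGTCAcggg
Egr4: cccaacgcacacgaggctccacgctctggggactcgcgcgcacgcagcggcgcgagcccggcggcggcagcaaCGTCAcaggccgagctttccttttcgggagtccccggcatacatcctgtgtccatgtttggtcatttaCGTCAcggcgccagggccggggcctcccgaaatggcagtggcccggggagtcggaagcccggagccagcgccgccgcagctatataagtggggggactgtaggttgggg
Of the 31396 promoters of the table, 1.41% held a CArG box and 17.9% held the CRE core TGACG, both searched on both strands. A match is a description of letters and not evidence of binding. These windows lie in the sites described as the start sites of Egr2 (chr10:67537575-67538074) and Egr4 (chr6:85513437-85513936).

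Each library was deposited as a list of summits inside intervals, and each summit was ranked by the authors' −log10 p within its own list, rank 1 being the strongest. The rank score of a site is log2(178672/rank) for the best summit in the site, where 178672 is the smallest number of autosomal summits in any list, and 0 where no summit fell in it. A change of 1 on this log2 scale is a rank divided by 2. Ranks are relative within a library, so a site can gain places because others lost them. A second score uses the interval that covers a site, and it is given where it differs, because KCl merged neighbouring intervals at these genes. Tests are limma fits over all sites of an experiment, with Benjamini-Hochberg adjustment over 183076, 167099 and 203809 sites in the drug, Arid2 and DIV18 experiments. The Egr loci held 130, 98 and 148 of these tested sites, and a site was called at an adjusted p under 0.05. In bulk cultures, more cells with an open site and a site more open in each cell cannot be told apart.

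The lists held 182229 to 397885 summits, and read depth was otherwise unknown. FHT1015 libraries had 233609 to 364986 autosomal summits and DMSO libraries 340149 to 389907. In the Arid2 experiment, KCl libraries had 178672 to 206373 autosomal summits and unstimulated libraries 227569 to 245130, so list length and KCl moved together there. All 10 neuronal marker genes had a summit at a gene end in these data, Gad2 in only 24 libraries and the others in all 44. The astrocyte genes Gfap, Aldh1l1 and Slc1a3 also had one in all 44 libraries, S100b in 39, and Aqp4 had no site. The oligodendrocyte lineage genes Olig1, Olig2 and Mbp had one in all 44, Pdgfra in 32, Mog in 16 and Sox10 in 14. Of the vascular and meningeal genes, Col1a1 had one in all 44, Kdr in 37, Pdgfrb in 31 and Cldn5 in 26. The endothelial gene Pecam1 had no site. Of the microglial genes, P2ry12 had one in 28 libraries, Tmem119 in 24, Csf1r in 13, and Cx3cr1 and Aif1 in 1 each. The neuronal sites thus do not show that other cell types were absent. The summed rank score of 5 vascular and meningeal markers (4 of them seen) was 3.20 to 4.87 in DIV18 KCl libraries, against 1.60 to 3.63 in unstimulated ones. In the Arid2 experiment that sum was 4.64 to 5.70 with KCl and 3.25 to 4.21 without. The 6 oligodendrocyte lineage markers summed in the drug experiment to 12.8 to 13.3 after 10 min of KCl, against 13.6 to 15.7 unstimulated, and to 12.6 to 14.3 after 30 min, against 14.5 to 15.9 unstimulated. The 5 astrocyte markers (4 of them seen) summed to 7.43 to 9.24 in FHT1015 libraries and 9.08 to 10.4 in DMSO libraries. The part of these shifts in the results below was not tested.

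At DIV18, KCl for 30 min opened all 4 loci. Over the 5 genotypes together, 89 of the 148 tested Egr sites rose and 8 fell, where 34.5% of all sites tested were called (13.9% up, 20.6% down). The median change was 0.62 at the Egr sites and −0.05 at all sites. By gene, 28 of 49 sites rose at Egr1, 16 of 25 at Egr2, 33 of 43 at Egr3 and 12 of 31 at Egr4, and 2, 0, 2 and 4 fell. By position, 18 of 19 tested sites in Egr gene bodies rose, 10 of 14 within 1 kb of an annotated start, 31 of 40 within 20 kb past a 3′ end, 18 of 31 farther upstream and 5 of 9 farther past the 3′ end. Among the 35 tested sites assigned to protein-coding neighbours (Kdm3b, Reep2, Etf1, Ado, Pebp4, Bin3, Cct7 and Fbxo41), 7 rose and 7 fell.

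**Figure D1:**
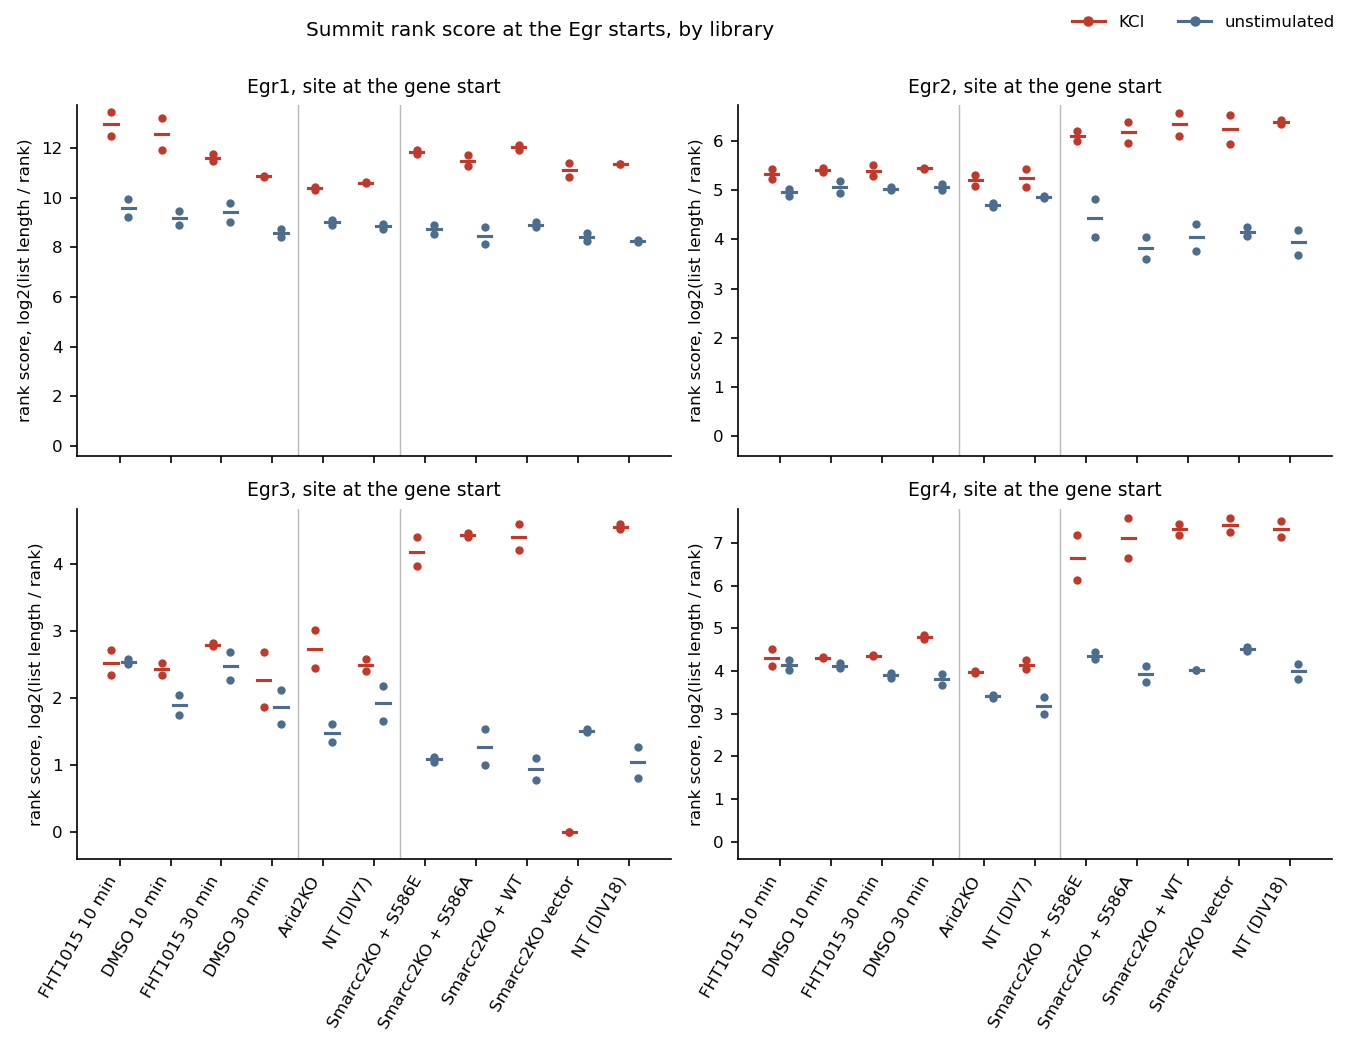
Summit rank score (log2 scale, higher is nearer the top of the list) of the start sites of Egr1, Egr2, Egr3 and Egr4 in every library, by group, with KCl and unstimulated libraries marked. All KCl points of Egr1 lie above all unstimulated ones, and the 2 vector libraries with KCl lie at 0 for Egr3 because no summit fell in that site.

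Egr1 encodes the best studied EGR factor of neurons (also called Zif268). Its start site (chr18:34860880-34861379), which overlaps the annotated start at chr18:34861207, was already near the top of every list before stimulation and moved to the very top with KCl. At DIV18 it ranked 51 and 46 in S586E, 73 and 53 in S586A, 46 and 40 in WT, 98 and 67 in vector and 69 and 69 in NT neurons with KCl. Unstimulated, it ranked 372 and 477 in S586E, 641 and 399 in S586A, 344 and 401 in WT, 593 and 463 in vector and 610 and 563 in NT neurons. The worst KCl rank, 98, was better than the best unstimulated rank, 344, so the states did not overlap. The change over the 5 genotypes was 3.01 ± 0.14 (SE, limma, adjusted p = 4.55e-09), and within genotypes it was 3.12 in S586E, 3.02 in S586A, 3.11 in WT, 2.69 in vector and 3.09 in NT neurons (SE 0.31 each), called in each.

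At DIV7 the Egr1 start responded within 10 min. After 10 min it ranked 16 and 31 in FHT1015 with KCl, against 302 and 180 in FHT1015 unstimulated, and 46 and 19 in DMSO with KCl, against 256 and 372 in DMSO unstimulated. At 30 min the ranks were 63 and 52 in FHT1015 with KCl, against 344 and 202 unstimulated, and 97 and 96 in DMSO with KCl, against 420 and 528 unstimulated. KCl libraries stood above unstimulated ones in every pair of groups. The changes at 10 min were 3.39 ± 0.50 in FHT1015 (adjusted p = 0.00504) and 3.38 ± 0.50 in DMSO (adjusted p = 0.00237) by limma. At 30 min they were 2.20 in FHT1015 (adjusted p = 0.00845) and 2.29 in DMSO (adjusted p = 0.00744) by limma. All 4 thus passed. Without the first unstimulated FHT1015 library the 30 min change in FHT1015 was 1.82 and without the second KCl library it was 2.07, and neither passed. Among the DIV7 guide cultures the site ranked 129 and 139 in Arid2KO with KCl, against 372 and 323 unstimulated, and 117 and 112 in NT with KCl, against 413 and 360 unstimulated. Both KCl pairs ranked better than their unstimulated pairs. The change in NT was 1.75 ± 0.24 (limma, adjusted p = 0.0442) and lost its call without any 1 of its 4 libraries, and that in Arid2KO was 1.37 ± 0.24 (adjusted p = 0.143).

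In order of mean rank score, all 11 KCl groups stood above all 11 unstimulated groups at the Egr1 start, with FHT1015 at 10 min of KCl at the top (12.97) and unstimulated NT neurons of DIV18 at the bottom (8.25). Only 4 of the 21 neighbouring pairs in that order did not overlap in their libraries.

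The 3′ end of Egr1 changed most at DIV18. The site at chr18:34865295-34865794, centred 589 bp past the annotated 3′ end, ranked 16 and 19 in S586E, 17 and 20 in S586A, 15 and 13 in WT, 15 and 20 in vector and 16 and 15 in NT neurons with KCl. Unstimulated libraries had ranks of 8868 to 46173, with a median of 14096. The authors' fold enrichment at its summits was 335 to 419 with KCl and 14.8 to 48.9 without. With KCl it thus stood above the gene's own start, whose KCl ranks were 40 to 98. The change over genotypes was 9.86 ± 0.17 (limma, adjusted p = 1.61e-13).

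At DIV7 the same 3′ site behaved differently between the experiments. With Arid2 or NT guides it ranked 933 and 2457 in Arid2KO with KCl, against 43402 and 46738 unstimulated, and 730 and 2768 in NT with KCl, against 44353 and 38273 unstimulated. Both changes were called by limma, 4.89 ± 0.57 (adjusted p = 0.0185) in Arid2KO and 4.86 ± 0.57 (adjusted p = 0.0215) in NT, and neither KCl group overlapped its unstimulated group. The drug experiment gave ranks of 11620 and 9150 in FHT1015 with 10 min of KCl, against 17309 and 19141 unstimulated, and 9682 and 11407 in DMSO with KCl, against 37295 and 44696 unstimulated. The 10 min change was 1.96 ± 0.30 in DMSO (limma, adjusted p = 0.00294) and 0.82 in FHT1015 (adjusted p = 0.143). After 30 min the ranks were 16856 and 9803 in FHT1015 with KCl, against 12806 and 13284 unstimulated, and 30209 and 18984 in DMSO with KCl, against 35447 and 20711 unstimulated. Those groups overlapped, with changes of 0.02 in FHT1015 and 0.18 in DMSO.

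Inside the Egr1 gene, 3 neighbouring sites shared this pattern. The site at chr18:34863318-34863817 ranked 351 to 1093 with KCl at DIV18 (median 805.5), against 48050 to 128361 in the 9 unstimulated libraries with a summit there. Its change was 6.71 ± 0.22 (limma, adjusted p = 5.83e-11), and those at 34863823 and 34864348 were 7.28 and 9.57. Drug experiment libraries ranked it at 14635 and 14085 in FHT1015 with 10 min of KCl, against 25645 and 29642 unstimulated, and 14983 and 20955 in DMSO with KCl, against 69383 and 63467 unstimulated. The 10 min change was 0.94 ± 0.18 in FHT1015 (adjusted p = 0.0158) and 1.90 in DMSO by limma. The difference between them was itself called (−0.96 ± 0.26, limma, adjusted p = 0.0432), and the FHT1015 libraries started from better ranks in the unstimulated state.

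After 30 min in the drug experiment this gain in the Egr1 gene was no longer seen at summits. The site at chr18:34863318-34863817 ranked 29133 and 29035 in FHT1015 with KCl, against 30418 and 25774 unstimulated, and 63333 and 61227 in DMSO with KCl, against 72995 and 51422 unstimulated, so both pairs overlapped. The response at 30 min minus that at 10 min was −1.93 ± 0.26 in DMSO (limma, adjusted p = 0.0043). In Arid2 and NT cultures, also at DIV7 and 30 min, the same site rose by 3.16 in Arid2KO and 2.60 in NT neurons, both called. The experiments were fitted apart and their libraries differ in more than the drug solvent, so this difference was not tested. By interval, which takes the best summit of the whole merged peak, the site in the gene rose by 3.94 in DMSO at 10 min and 2.42 at 30 min, both called.

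A pair of Egr1 sites moved in other ways. The site at chr18:34868238-34868737, 3532 bp past the 3′ end, ranked 57388 and 61898 in FHT1015 with 30 min of KCl, against no summit unstimulated, and 178573 and 147469 in DMSO with KCl, again against none unstimulated. It rose by 1.58 ± 0.10 in FHT1015 (limma, adjusted p = 1.75e-06), and the response in FHT1015 exceeded that in DMSO by 1.45 ± 0.14 (adjusted p = 9.70e-05). Unstimulated scores of 30 min were 0 at this site, so only a rise was possible, and groups fixed at 0 add no spread to these SE. The site 635 bp past the Egr1 start (chr18:34861592-34862091), named after its values were seen, lost its summit in all 4 KCl libraries of 10 min, where unstimulated libraries ranked it at 12018 and 11209 in FHT1015 and 15598 and 13519 in DMSO. This gave changes of −3.94 ± 0.89 in FHT1015 and −3.62 ± 0.89 in DMSO (limma, adjusted p = 0.0280 and 0.0237), inside an interval that covered 100% of the gene body in the libraries of both states.

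Egr2, known for its role in myelinating Schwann cells, has 5 annotated starts (67535499 to 67537930 on chromosome 10). The site at chr10:67537575-67538074, which holds the promoter window printed above and 3 of these starts, was the strongest of the Egr2 sites near a start. At DIV18 it ranked 1878 to 2902 with KCl (median 2307), against 6331 to 14664 unstimulated (median 10772). The states did not overlap. The change was 2.17 ± 0.14 over genotypes (limma, adjusted p = 1.06e-07), and 1.67 in S586E, 2.35 in S586A, 2.30 in WT, 2.08 in vector and 2.44 in NT neurons, called in each. Without the first S586E library with KCl the change in S586E was 1.57 and did not pass.

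At DIV7 the changes at the same Egr2 start were small. After 10 min it ranked 4763 and 4119 in FHT1015 with KCl, against 6075 and 5471 unstimulated, and 4109 and 4314 in DMSO with KCl, against 5808 and 4929 unstimulated. After 30 min it ranked 4571 and 3928 in FHT1015 with KCl, against 5340 and 5586 unstimulated, and 4096 and 4127 in DMSO with KCl, against 5586 and 5090 unstimulated. In each of these pairs both KCl libraries ranked better than both unstimulated ones. The changes were 0.38 and 0.37 in FHT1015 and 0.35 and 0.38 in DMSO at 10 and 30 min, of which those at 30 min passed (limma, adjusted p = 0.0447 in FHT1015 and 0.0374 in DMSO). Leaving out single libraries ended the call in DMSO for any of the 4 (0.31 to 0.44), and in FHT1015 for all but the first KCl library (0.26 to 0.40). In the DIV7 guide cultures it ranked 4491 and 5274 in Arid2KO with KCl, against 7076 and 6739 unstimulated, and 4120 and 5323 in NT with KCl, against 6205 and 6076 unstimulated. Again both KCl libraries of each pair ranked better. Those changes, 0.50 in Arid2KO and 0.39 in NT, did not pass (limma, adjusted p = 0.446 and 0.640).

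The upstream Egr2 start site (chr10:67535131-67535630), where the lncRNA Gm32255 overlaps, was weak. At DIV18 it ranked 57802 to 114182 with KCl, against 134369 to 287876 in the 9 unstimulated libraries with a summit, a change of 1.11 over genotypes (called). With 10 min treatments it ranked 92664 and 94854 in FHT1015 with KCl, against 80372 and 74209 unstimulated, and 58600 and 59373 in DMSO with KCl, against 93528 and 84421 unstimulated. KCl libraries ranked better in DMSO and worse in FHT1015. The DMSO change was 0.59 ± 0.16 (limma, adjusted p = 0.0392), lost without any 1 of its 4 libraries, and the response in FHT1015 minus that in DMSO was −0.87 ± 0.23 (adjusted p = 0.0423).

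In the Egr2 gene body, the site at chr10:67538762-67539261 ranked 42951 to 73315 with KCl at DIV18, against 172359 to 227063 unstimulated with no summit in 3 libraries. Its change was 1.63 ± 0.10 (limma, adjusted p = 7.88e-08). After 10 min it ranked 63889 and 60074 in FHT1015 with KCl, against 61846 and 65580 unstimulated, and 39933 and 36839 in DMSO with KCl, against 69742 and 90257 unstimulated. At 30 min the ranks were 60236 and 47441 in FHT1015 with KCl, against 57954 and 56591 unstimulated, and 43965 and 49080 in DMSO with KCl, against 78157 and 80465 unstimulated. The groups overlapped in FHT1015 and did not in DMSO. The change was 0.04 at 10 min and 0.10 at 30 min in FHT1015, and 1.05 and 0.77 in DMSO, where both passed. The difference between the drug and DMSO responses was −1.01 ± 0.21 at 10 min (limma, adjusted p = 0.0176) and −0.67 ± 0.21 at 30 min (adjusted p = 0.0419).

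Farther along Egr2, FHT1015 at 30 min was marked by weak summits in unstimulated neurons that KCl libraries lacked. The site at chr10:67541589-67542088 had no summit in FHT1015 with KCl, against ranks of 109401 and 112528 in FHT1015 unstimulated. In DMSO it ranked 270978 and 189004 with KCl, against 342383 and no summit unstimulated, beyond the 178672 places that are scored. The changes in FHT1015 at this site and at those starting at 67540136, 67542107 and 67542860 were −0.69, −0.54, −0.41 and −0.65, all called. Each differed from DMSO by the same amount, because the score did not change in DMSO. At chr10:67541589-67542088 FHT1015 with KCl and both DMSO groups scored 0, so only a fall was possible in FHT1015. Groups fixed at 0 add no spread to its SE. The unstimulated lists of 30 min held 233609 and 265491 autosomal summits in FHT1015 and 389907 and 340149 in DMSO. The part of list length in these changes was not tested. At DIV18 these 4 sites rose instead, by 0.41, 0.92, 0.68 and 0.87, and peaks ran 1537 to 2799 bp past the Egr2 3′ end with KCl, against 0 in all unstimulated libraries. Covered bases in the Egr2 gene body made up 79.5% to 89.2% with KCl and 23.8% to 43.9% without (exact permutation test within genotypes, 2-sided, p = 0.000257, adjusted p = 0.00154 over 48 coverage tests).

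Egr3, needed in mice for the formation of muscle spindles, opened over the longest stretch. Its start site (chr14:70077287-70077786), which overlaps the annotated start at 70077317, ranked 11489 and 8466 in S586E, 8151 and 8485 in S586A, 7442 and 9664 in WT and 7412 and 7815 in NT neurons with KCl at DIV18, and no summit fell in it in either vector library. Unstimulated libraries ranked it at 61621 to 104356 (median 82805.5). Where a summit was present, KCl libraries ranked better than all unstimulated ones. The changes were 3.10 in S586E, 3.16 in S586A, 3.46 in WT and 3.51 ± 0.24 in NT neurons (limma, adjusted p = 2.22e-06 in NT), against −1.51 ± 0.24 in vector neurons (adjusted p = 0.00228).

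By interval the Egr3 start of vector neurons rose. The interval over the Egr3 start ranked 863 and 1117 in vector neurons with KCl, against 8566 and 8942 unstimulated, a change of 3.16. The best summit within 500 bp of the centre changed by 4.28 ± 0.21 in vector and 4.52 in NT neurons, both called. The difference in KCl response between vector and NT neurons was −5.03 ± 0.35 by the 500 bp site (0.371% of all sites called) and −0.51 by interval, and that between WT and vector neurons 4.97 ± 0.35 (0.237%) and 0.23. The interval values were not called.

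At DIV7 the Egr3 start site itself was not called. The 10 min libraries ranked it at 27271 and 35307 in FHT1015 with KCl, against 31435 and 29971 unstimulated, and 35119 and 31304 in DMSO with KCl, against 43287 and 53121 unstimulated. Those of 30 min ranked it at 26207 and 25378 in FHT1015 with KCl, against 27948 and 37111 unstimulated, and 27903 and 49139 in DMSO with KCl, against 58649 and 41331 unstimulated. The libraries overlapped in FHT1015 at 10 min and in DMSO at 30 min. The changes at 10 and 30 min were −0.02 and 0.32 in FHT1015 and 0.53 and 0.41 in DMSO (limma, adjusted p = 1.0, 0.488, 0.217 and 0.290). By interval they were 1.04 and 1.5 in FHT1015 and 0.64 and 1.21 in DMSO, of which all but the DMSO change at 10 min passed. With guides at DIV7 the change was 1.25 in Arid2KO and 0.57 in NT, neither called (limma, adjusted p = 0.300 and 0.684).

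Just upstream of Egr3, the site at chr14:70076659-70077158, centred at −408 bp from the start and named after its values were seen, held the strongest summit of the promoter. At DIV18 it ranked 766 to 1808 with KCl (median 1096), against 9391 to 19342 unstimulated (median 12605.5), without overlap. Its change was 3.54 ± 0.18 over genotypes (limma, adjusted p = 1.18e-08), from 3.34 in vector to 3.86 in NT neurons. After 10 min it ranked 3400 and 3618 in FHT1015 with KCl, against 8123 and 9442 unstimulated, and 3374 and 4318 in DMSO with KCl, against 10631 and 10341 unstimulated. At 30 min it stood at 3621 and 2727 in FHT1015 with KCl, against 13239 and 11094 unstimulated, and 3175 and 2291 in DMSO with KCl, against 10799 and 8743 unstimulated. None of these pairs overlapped. The changes in FHT1015 were 1.32 and 1.95 and those in DMSO 1.46 and 1.85 at 10 and 30 min, all called, and FHT1015 and DMSO responses differed by −0.14 and 0.10, which were not called. Arid2 and NT cultures ranked it at 4712 and 6043 in Arid2KO with KCl, against 11261 and 15299 unstimulated, and 3969 and 5548 in NT with KCl, against 15387 and 11906 unstimulated, with changes of 1.30 ± 0.26 and 1.53 ± 0.26 that did not pass (limma, adjusted p = 0.196 and 0.109).

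**Figure D2:**
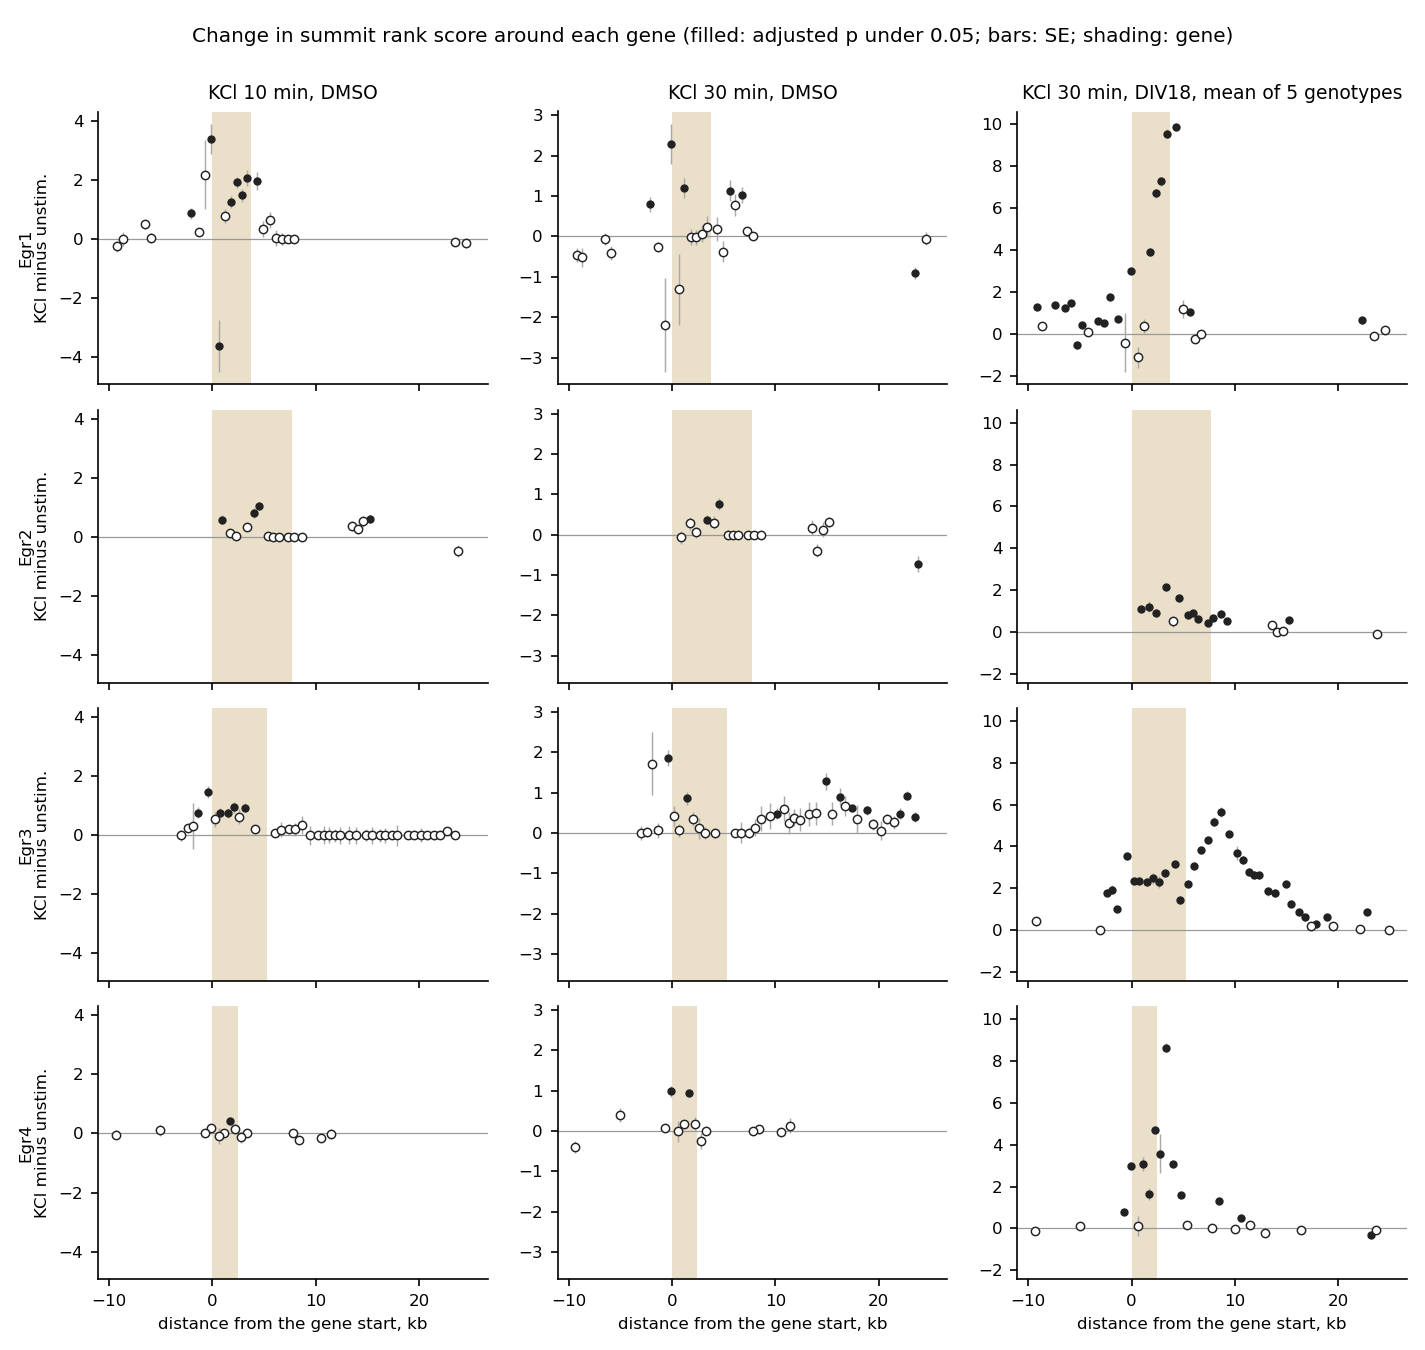
Change in summit rank score after KCl (log2 scale) at each tested site against its distance from the start of Egr1, Egr2, Egr3 or Egr4 (kb, in the direction of transcription). At Egr3 and DIV18 the changes are 2.34 at the start site, 5.18, 5.64 and 4.60 at 2715, 3364 and 4170 bp past the 3′ end, and 0.21 at 12079 bp past it.

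Downstream of Egr3, sites with few or no summits in unstimulated libraries rose with KCl. The site at chr14:70085727-70086226, 3364 bp past the 3′ end, ranked 1409 to 8199 with KCl at DIV18 (median 3348), against no summit in 7 of the 10 unstimulated libraries and 212586 to 273057 in the others. Its change was 5.64 ± 0.25 (limma, adjusted p = 3.04e-09), and its neighbours at 70085078 and 70086533 changed by 5.18 and 4.60. All unstimulated scores of DIV18 were 0 at the site at 70085727, since its ranks there lay beyond the 178672 scored places. Only a rise was thus possible, and groups fixed at 0 add no spread to this SE. At DIV7 the same site ranked 17855 and 43511 in Arid2KO with KCl and 16638 and 73897 in NT with KCl, against no summit in either unstimulated group.

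The length of this accessible stretch differed between 10 and 30 min of KCl in the drug experiment. It is given as the reach, the distance past the 3′ end to which intervals ran on with no gap over 1 kb, and it was 0 in every unstimulated library. The Egr3 reach in the drug experiment after 10 min of KCl was 4665 and 5514 bp in FHT1015 and 4937 and 4945 bp in DMSO. After 30 min it was 18329 and 18913 bp in FHT1015 and 18636 and 18713 bp in DMSO, up to the neighbouring gene Bin3, which lies 17476 bp past Egr3. Under 30 min of KCl, the Arid2 experiment gave 6339 and 5356 bp in Arid2KO and 6571 and 5646 bp in NT neurons. At DIV18 it gave 11446 and 11483 bp in S586E, 14059 and 10193 bp in S586A, 20023 and 14283 bp in WT, 17995 and 14066 bp in vector and 18308 and 14362 bp in NT neurons. List length also differed between experiments: KCl libraries of 30 min held 240781 to 374486 autosomal summits with drug or DMSO, 178672 to 206373 with DIV7 guides and 240264 to 329582 with DIV18 guides, and the part of list length in the reach was not tested. The 10 and 30 min libraries of the drug experiment did not overlap, and within each time FHT1015 and DMSO libraries lay within 1 kb of each other.

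**Figure D3:**
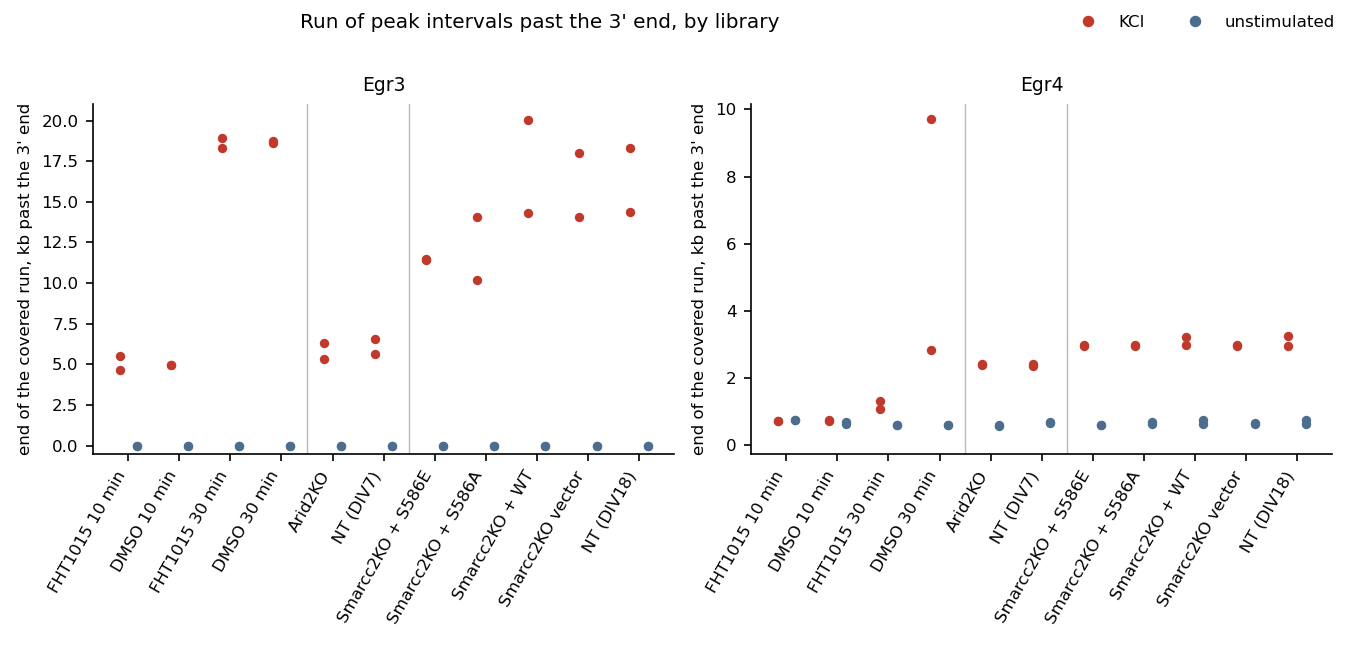
Distance in kb past the annotated 3′ end to which accessible intervals ran on without a gap over 1 kb, per library, for Egr3 and Egr4. At Egr3 every unstimulated library is at 0, KCl for 10 min reaches 4665 to 5514 bp, and KCl for 30 min reaches 18329 to 18913 bp in the drug experiment.

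Coverage by intervals gave the same picture of Egr3. At DIV18, 100% of the gene body was covered with KCl, against 43.2% to 65.2% unstimulated (exact permutation test within genotypes, 2-sided, p = 0.000257, adjusted p = 0.00154, the smallest p this test can give). The first 5 kb past the 3′ end was covered to 100% with KCl, against 0% to 18.1% unstimulated, and the next 5 kb to 90.4% to 100% against 0% to 12.7%. Between 10 and 15 kb the cover was 20.4% to 99.8% with KCl and 11.3% to 20.8% without, so the libraries overlapped there. That last segment in the drug experiment was covered to 100% after 30 min of KCl, against 3.40% to 5.30% unstimulated, and to 0% to 3.00% after 10 min of KCl, against 4.48% to 7.44% unstimulated. With 4 libraries against 4 the exact permutation test cannot go below p = 0.0556, so these segments could not be called.

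**Figure D4:**
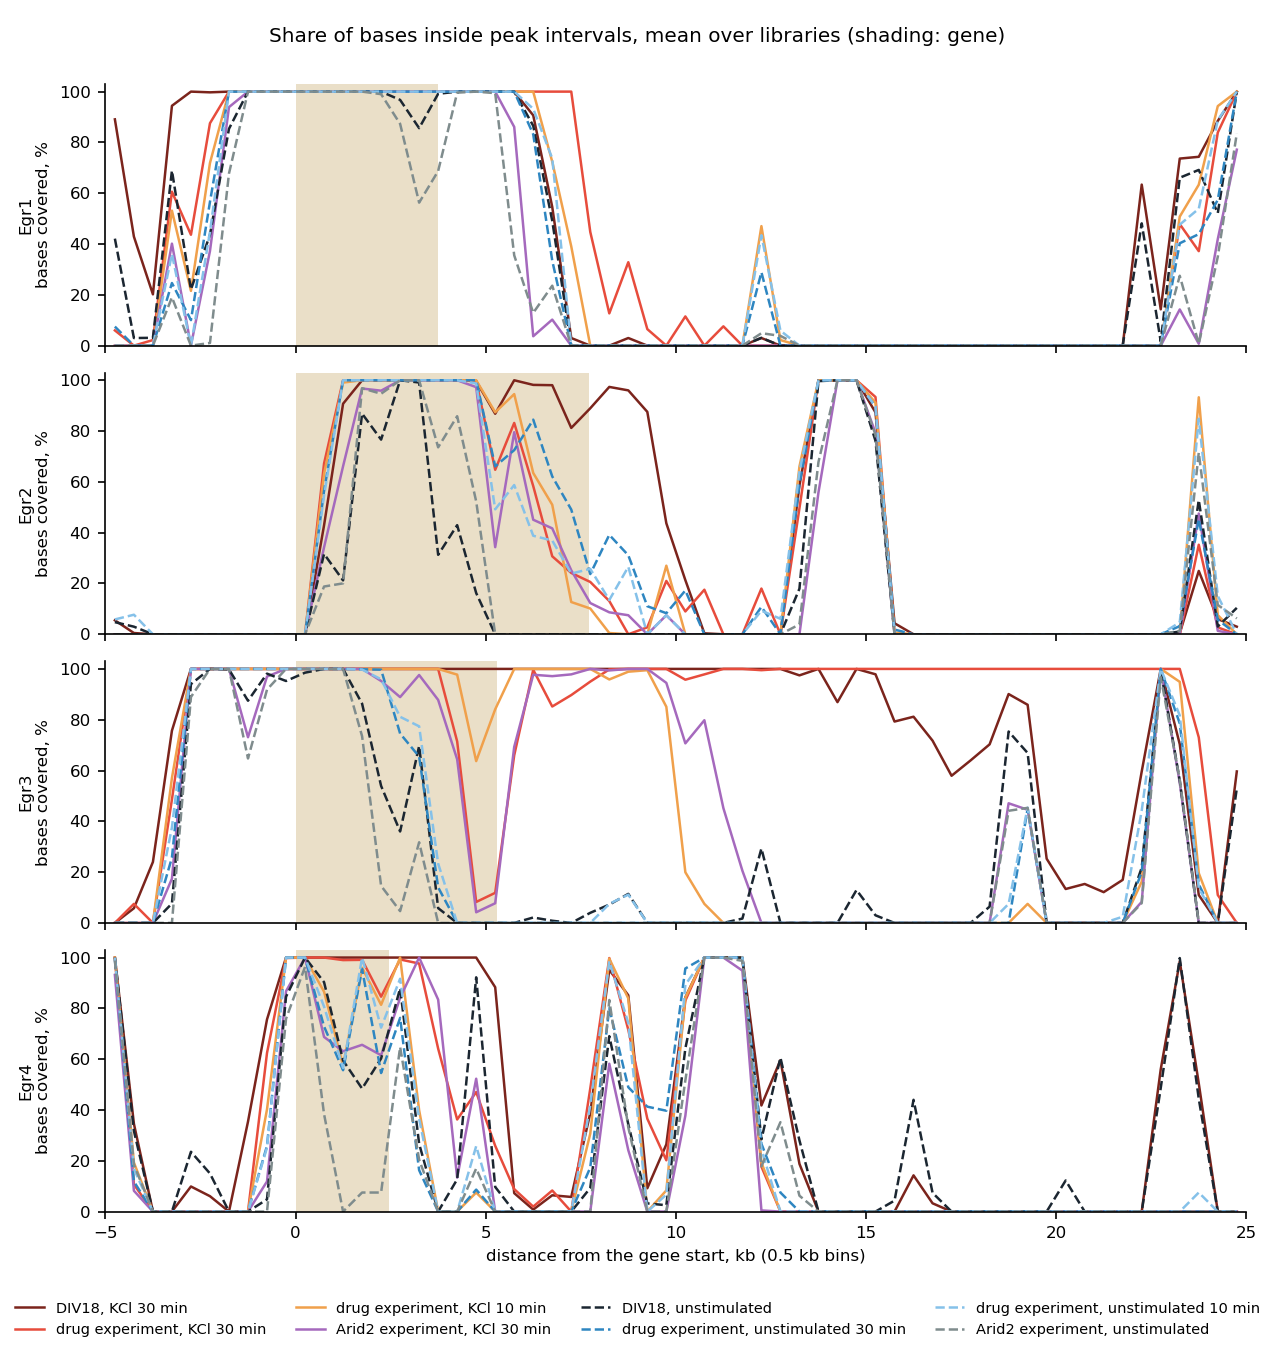
Share of each 500 bp bin covered by intervals (percent, mean over libraries) against the distance from the start of each Egr gene (kb, in the direction of transcription), for KCl and unstimulated libraries of each experiment. The cover of Egr3 with KCl runs on past the gene's 3′ end, where unstimulated libraries have 0% to 18.1% in the first 5 kb at DIV18.

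At DIV18 the widening of Egr3 was among the largest of all genes. The intervals that touch the Egr3 gene were 16550 to 23399 bp wide with KCl at DIV18 (median 20513), against 1441 to 5049 bp unstimulated (median 2932.5). The mean gain of 17175 bp ranked at place 3 of 20665 genes, after Per1 (18659 bp) and Vamp2 (17873 bp), neighbours of each other, and before Homer1 (14681 bp) and Nr4a3 (14477 bp). Egr4, Egr2 and Egr1 ranked at places 61, 105 and 113, and 59 genes gained more than 5 kb. At DIV7 the Egr3 gain by this measure was smaller, 1381 bp (place 34) in the Arid2 experiment and 1794 bp (place 138) after 30 min in the drug experiment, where Egr2 stood at place 7582. This measure counts only an interval that touches the gene. With 30 min of KCl in the drug experiment, the widest interval of the Egr3 locus, 11444 to 16718 bp, was a separate one. The gain at the neighbouring gene Bin3 was 12585 bp there (place 8), so the smaller Egr3 gain does not mean a shorter stretch. These are places in an order, with no test.

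A site past the Egr3 3′ end was called between S586E and WT neurons with KCl by summit and not by interval. At chr14:70091975-70092474, 9612 bp past the 3′ end and named after its values were seen, the change with KCl was 0.79 in S586E (limma, adjusted p = 0.277), 1.32 in S586A (0.0584), 3.07 in WT (0.000450), 2.46 in vector (0.00135) and 3.36 in NT neurons (0.000140). With KCl, S586E neurons were 2.28 ± 0.37 below WT neurons (limma, adjusted p = 0.0436), the only one of 148 Egr sites called in that comparison, where 0.0496% of all sites were called. By interval the difference was −6.08 and did not pass (adjusted p = 0.135). The difference in KCl response, S586E minus WT, was −2.28 ± 0.52 (adjusted p = 0.236), and S586A minus WT was −1.75 (adjusted p = 0.802). At an unadjusted p under 0.05, 11 of 43 Egr3 sites differed in KCl response between S586E and WT. Between S586A and WT 9 of 43 did. Over all 203809 sites tested, 13002 and 8485 did so. None of the Egr3 sites was called after adjustment (0.0319% and 0.00883% of all sites called).

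The distal Egr3 tail in the drug experiment opened only after 30 min. The site at chr14:70094442-70094941, 12079 bp past the 3′ end, ranked 74599 and 79898 in FHT1015 with KCl, against no summit unstimulated, and 120071 and 114218 in DMSO with KCl, against none unstimulated. Its change was 1.21 ± 0.07 in FHT1015 (limma, adjusted p = 1.11e-06) and 0.61 ± 0.07 in DMSO (adjusted p = 0.000184), and the difference of 0.60 ± 0.09 was called (adjusted p = 0.0014). With unstimulated scores at 0 only a rise was possible at this site. Groups fixed at 0 add no spread, so these SE and p rest on the KCl libraries and the borrowed variance. The response at 30 min exceeded that at 10 min by 1.21 in FHT1015 and 0.61 in DMSO. The site at 70095956 ranked 86196 and 64687 in FHT1015 with KCl and 116525 and 125355 in DMSO with KCl, with no summit in the unstimulated libraries of 30 min. Its response was 0.69 higher in FHT1015 than in DMSO by summit and 1.15 lower by interval (−1.15), both called, so the direction of that difference depends on the unit.

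Egr4, expressed mainly in the nervous system, lies on the − strand of chromosome 6 next to Fbxo41. Its start site (chr6:85513437-85513936), which holds both CRE cores printed above, ranked 938 to 2569 with KCl at DIV18 (median 1197), against 7527 to 13296 unstimulated (median 10122.5), without overlap. The change was 3.00 ± 0.15 over genotypes (limma, adjusted p = 7.63e-09), and 2.29 in S586E, 3.18 in S586A, 3.29 in WT, 2.89 in vector and 3.34 in NT neurons, called in each. The KCl response in S586E minus that in WT, −1.0 ± 0.47, was not called (adjusted p = 0.783).

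In the drug experiment the Egr4 start responded at 30 min. After 10 min it ranked 10363 and 7849 in FHT1015 with KCl, against 9303 and 10923 unstimulated, and 9041 and 8909 in DMSO with KCl, against 9848 and 10658 unstimulated. After 30 min it ranked 8742 and 8628 in FHT1015 with KCl, against 12499 and 11480 unstimulated, and 6627 and 6260 in DMSO with KCl, against 13981 and 11715 unstimulated. The change at 30 min was 0.46 in FHT1015 (limma, adjusted p = 0.0309) and 0.99 ± 0.14 in DMSO (adjusted p = 0.00064), and at 10 min it was 0.16 and 0.19, with neither called. The FHT1015 call at 30 min was lost without any 1 of its 4 libraries (0.40 to 0.53), and the difference between FHT1015 and DMSO, −0.53 ± 0.19, was not called (adjusted p = 0.0754). At DIV7 with guides it ranked 11095 and 11446 in Arid2KO with KCl, against 16404 and 17233 unstimulated, and 10879 and 9324 in NT with KCl, against 22444 and 17084 unstimulated. Both KCl groups ranked better than their unstimulated groups, with changes of 0.58 and 0.96 that did not pass (limma, adjusted p = 0.432 and 0.276).

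Past the 3′ end of Egr4, the site at chr6:85510026-85510525 (845 bp past) ranked 188 to 2249 with KCl at DIV18 (median 457.5), against no summit in 9 of 10 unstimulated libraries and 289504 in the other. Its change was 8.64 ± 0.24 (limma, adjusted p = 1.22e-11), and its KCl median was better than that of the Egr4 start. All unstimulated scores of DIV18 were 0 at this site, so only a rise was possible. Groups fixed at 0 add no spread to this SE. The Arid2 experiment had ranks of 34345 and 54626 in Arid2KO with KCl and 35217 and 63983 in NT with KCl, against no summit in the unstimulated libraries, and the changes of 2.04 and 1.91 did not pass (limma, adjusted p = 0.238 and 0.288). Of the drug experiment groups, only those with 30 min of KCl had summits there in both libraries, at 165076 and 122744 in FHT1015 and 211539 and 218538 in DMSO, near or beyond the last scored place. At the Egr4 3′ end, the site at chr6:85511104-85511603 changed by 4.72 ± 0.13 at DIV18 (limma, adjusted p = 1.49e-11).

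Reach past Egr4 was 2954 to 3267 bp with KCl at DIV18, against 604 to 768 bp unstimulated, and 2361 to 2425 bp with KCl in the Arid2 experiment, against 577 to 689 bp. After 30 min in the drug experiment it was 1099 and 1319 bp in FHT1015 with KCl and 2847 and 9707 bp in DMSO with KCl, against 609 to 623 bp unstimulated. The FHT1015 libraries were thus below both DMSO libraries, a difference that was not tested. At 10 min the KCl reach was 718 to 757 bp, inside the unstimulated range of 631 to 768 bp.

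A site in the Egr4 gene (chr6:85511643-85512142) responded to KCl less in FHT1015 by summit score. After 10 min it ranked 205957 and 277070 in FHT1015 with KCl, against 169507 and 161065 unstimulated, and 131814 and 133249 in DMSO with KCl, against 182414 and 212398 unstimulated. After 30 min it ranked 115257 and 136151 in FHT1015 with KCl, against 151872 and 142116 unstimulated, and 89312 and 97153 in DMSO with KCl, against 269445 and 225738 unstimulated. Ranks of unstimulated DMSO at both times, and of FHT1015 with KCl at 10 min, lay beyond the 178672 scored places and scored 0. In DMSO only a rise was thus possible, and groups fixed at 0 add no spread to these SE. The DMSO change was 0.43 at 10 min and 0.94 at 30 min, both called. The difference between the drug and DMSO responses was −0.54 ± 0.13 and −0.71 ± 0.13, also called, and its size depends on where the score ends. At DIV18 a summit fell in it with KCl in both S586E (16953 and 30363) and both vector libraries (11277 and 13103) and in 1 S586A library (21558), but in no WT or NT library. Vector and NT neurons differed there by 2.02 ± 0.45 over both states, and by 0.73 by interval, which was not called.

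Across the 4 loci, KCl raised far more sites than it lowered in every genotype at DIV18. In single genotypes, 39 sites rose and 0 fell in S586E, where 3.4% of all sites were called (1.7% up, 1.7% down). The counts were 46 and 0 in S586A (4.17%, 1.72% up and 2.46% down) and 45 and 2 in WT neurons (6.28%, 2.49% up and 3.8% down). They were 57 and 2 in vector (6.61%, 3.25% up and 3.36% down) and 60 and 4 in NT neurons (10.4%, 3.9% up and 6.47% down), of 148 tested. By interval the S586E count was 62, all up, of 159 tested (2.73% of all sites called). The S586A count was 30 without the first unstimulated library and 29 without the first KCl library. In the drug experiment, of 130 tested, KCl raised 9 and lowered 4 sites in FHT1015 (5.83% of all sites called, 2.81% up and 3.02% down) and 19 and 1 in DMSO (12.4%, 3.56% up and 8.79% down) after 10 min. At 30 min it raised 38 and lowered 18 in FHT1015 (22.3%, 10% up and 12.2% down) and 21 and 5 in DMSO (25%, 9.26% up and 15.7% down). By interval, of 149 tested sites, KCl raised 33 and lowered 8 in FHT1015 (5.21% of all sites called) and 20 and 0 in DMSO (3.64%) after 10 min, and raised 65 and lowered 18 in FHT1015 (21.8%) and 62 and 2 in DMSO (15.8%) after 30 min. The DMSO count at 30 min was thus a smaller share than that of all sites by summit, 26 of 130, and a larger one by interval, 64 of 149. On simulated data the summit calls in NT neurons at DIV18 and in DMSO at 30 min held a larger share of unchanged sites than those over the 5 genotypes. The response at 30 min differed from that at 10 min at 21 Egr sites in FHT1015 (13 larger, 8 smaller, 5.04% of all sites called) and at 7 in DMSO (3 larger, 4 smaller, 2.13%). The FHT1015 count of 13 at 10 min was 3 to 6 without any 1 of its 4 libraries, the DMSO count of 20 was 13 without the first library of either state, and the FHT1015 count of 56 at 30 min was 36 without either unstimulated library. In the Arid2 experiment 5 of 98 sites rose in Arid2KO (0.0754% of all sites rose) and 7 in NT neurons (0.0826%), all of them at Egr1, and leaving out any 1 library of either comparison gave 0.

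Set against DMSO, FHT1015 gave both higher and lower Egr sites. Averaged over times and states, 44 sites were higher and 24 lower in FHT1015 than in DMSO, against 59.8% of all sites called (23.5% up, 36.3% down), and with the number of summits as a covariate the called Egr sites numbered 23 (9 higher, 14 lower) in place of 68. Unstimulated, 15 were higher and 16 lower at 10 min (30.3% of all sites called) and 37 and 20 at 30 min (49.8%). With KCl, 1 was higher and 8 lower at 10 min (3.69%) and 29 and 15 at 30 min (29.1%). At 30 min all 12 gene body sites called between unstimulated FHT1015 and DMSO were higher in FHT1015, of 18 tested, where 19.8% of all sites were called up and 30.1% down. The FHT1015 lists of these groups held 233609 and 265491 autosomal summits and the DMSO lists 389907 and 340149, so list length differed with the drug.

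The test of whether FHT1015 altered the KCl response called 9 Egr sites at 10 min (4 up, 5 down, 8.62% of all sites called) and 34 at 30 min (16 up, 18 down, 21.7%). Without any 1 of the 8 libraries the 10 min count was 2 to 5, and without the first unstimulated FHT1015 library the 30 min count was 21. By summit the 30 min differences were split by gene: at Egr3 the response was larger in FHT1015 at 7 sites and smaller at 0, at Egr1 larger at 8 and smaller at 2, at Egr2 larger at 0 and smaller at 7, and at Egr4 larger at 1 and smaller at 9. With a summit required in 50% of libraries, these counts were 1 and 0 of 14 tested at Egr3 and 7 and 2 of 34 at Egr1. They were 0 and 1 of 13 at Egr2 and 1 and 4 of 14 at Egr4. The top 75000 summits gave 1 and 0 of 12 at Egr3 and 5 and 1 of 27 at Egr1. They gave 0 and 2 of 10 at Egr2 and 1 and 1 of 9 at Egr4. Few Egr2 and Egr3 sites thus carried the split under these settings. None of the sites within 1 kb of an Egr start was among the 34, and 5 gene body sites and 9 sites past a 3′ end were, the gene body sites all smaller in FHT1015 and the 9 all larger, with 2 more past a 3′ end smaller. By interval the 30 min test called 29 of 149 sites, 6 up and 23 down (16.5% of all sites called), and at 50% overlap 19 of 138, 4 up and 15 down (13%). Of the 16 sites with a larger response in FHT1015 by summit, 3 were called so by interval at either overlap, 1 each at Egr1, Egr3 and Egr4, and of the 18 with a smaller one 12 and 9 were. By interval at Egr3 the response was larger in FHT1015 at 2 sites and smaller at 4. At the Egr1 start the responses differed by 0.00 at 10 min and −0.08 at 30 min.

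No tested Egr site was called between Arid2KO and NT neurons by limma. Called sites numbered 0 unstimulated, 0 with KCl, 0 in the mean of both states and 0 in the KCl response, of 98 tested, where 0.0108%, 0.0102%, 0.00718% and 0.00419% of all sites were called. At an unadjusted p under 0.05 there were 6, 5, 5 and 5, against 8933, 7400, 7958 and 7979 of all 167099 sites. At the Egr1 start the KCl response in Arid2KO minus that in NT was −0.38 ± 0.34 (limma, adjusted p = 0.913). The lack of a call does not show that the genotypes were alike.

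Among the Smarcc2 genotypes, 4 Egr sites were higher and 6 lower in vector than in NT neurons over both states (8.56% of all sites called), and 6 were higher and 5 lower in WT than in vector neurons (5.97%). By interval these counts were 5 and 6, and the called sites include the Egr3 start and the Egr4 gene site, where some groups with KCl had no summit inside the 500 bp. Leaving out the first NT library with KCl gave 6 in the vector comparison, and leaving out the second unstimulated vector library gave 6 in the WT comparison. S586A and S586E each gave 0 calls against WT over both states, where 0.0226% and 0.08% of all sites were called. At an unadjusted p under 0.05 there were 21 and 22 of 148 Egr sites, against 11491 and 13940 of all 203809 sites. Without the first S586E library with KCl, 5 Egr sites were called between S586E and WT. Unstimulated, 1 site in the Fbxo41 gene (chr6:85474242-85474741) was called, and no other Egr site was: its difference was −0.48 in S586A against WT, where 0.201% of all sites were called, and −0.48 in S586E against WT (0.432%).

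Other genes of the pathway were read at sites within 1 kb of their ends, at DIV18 over the 5 genotypes, where 13.9% of all tested sites rose and 20.6% fell. The ERK phosphatases Dusp1, Dusp4, Dusp5 and Dusp6, which switch off ERK signalling, rose at 25 of 26 tested sites with a median change of 1.30, and none fell. The largest change among them, 6.34 ± 0.28 (limma, adjusted p = 2.52e-09), was at Dusp1. Of 12 genes described as EGR targets, 11 had a site. Among their 45 tested sites, 18 rose, at 7 genes, and 1 fell, with a median of 0.35. All 7 sites of Arc, a synaptic gene that is itself an immediate early gene, were among the risers, up to 8.88 ± 0.27, and 3 belonged to the DNA damage inducible gene Gadd45b, up to 2.86. The co-repressors Nab1 and Nab2 had 3 rises and 1 fall among 9 sites, the largest rise at Nab1. Of the factors upstream, SRF and its cofactors had 7 rises and 3 falls of 21 sites, CREB and its co-activators 3 and 2 of 15, and the ERK cascade 10 and 4 of 27. Related zinc finger genes of the Sp and Klf type had 10 rises and 5 falls of 33, and housekeeping genes 18 and 3 of 37. In the drug experiment with DMSO at 30 min, where 9.26% of all sites rose and 15.7% fell, ERK phosphatase sites rose at 7 of 20 with none falling, EGR target sites at 8 of 38 with 3 falling, and Nab sites at 0 of 8. In the Arid2 experiment no site of these lists was called, other than 1 housekeeping site in each genotype.

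Likeness was measured as Pearson's r over the 22 group means of the rank score, between each Egr start site and 27834 gene-end sites, and is a description, since the groups share depth and experiment. Nearest to the Egr1 start were Fos (0.90), Fosb (0.90), Prkab2 (0.88), Fosl1 (0.88) and Fbxl18 (0.88), of which Fos, Fosb and Fosl1 encode AP-1 subunits. For the Egr2 start at 67537575 they were Ppp1r15a (0.95), a second site of Egr3 (0.94), Vps8, Atg3 and Fos (0.93 each). For the Egr4 start they were Actg1 (0.98), Dnaja1, Jun, Rab7 and Cfl1 (0.97 each). The Egr3 start at 70077287, with its vector libraries at 0, had lower values, with Ptma (0.84), Zfp78 (0.77) and Ier2 (0.72) first. The upstream Egr2 start site was nearest to Naf1 (0.90), Gpc1 (0.90) and Dennd11 (0.90). Between members, r was 0.79 for Egr1 and Egr2, 0.61 for Egr1 and Egr3, 0.57 for Egr1 and Egr4 and 0.79 for Egr2 and Egr4.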

How the data were processed

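ATAC-seq peak lists of 44 libraries, 1 list per library on build mm10, were used as deposited; the submitters' processing notes name MACS2, Bowtie2 with Trim Galore, Picard, SAMtools, bedtools and FastQC, without versions. The deposited lists give, as computed by the authors, a fold enrichment (a ratio) and the −log10 p and −log10 q of each summit, along with an integer score and the summit's offset, which was used as the position. These values depend on depth and were used only within a list. Groups came from the sample labels.

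Summits and intervals on autosomes were ranked by −log10 p in Python 3.11.15 with numpy 2.4.6, pandas 2.3.3 and scipy 1.17.1, and scored as log2 of the shortest list (178672 summits, 133009 intervals) over the rank. Sites of 500 bp were centred on summits, best rank first, without overlap. A site was given to an Egr gene when it overlapped the gene body extended by 50 kb each side. Of the summit lines at Egr1, Egr2, Egr3 and Egr4, 76.9%, 77.2%, 68.9% and 67.5% fell inside the sites. Each experiment was fitted with limma 3.58.1 in R 4.3.3, with 1 mean per group, a variance trend, and sites with a summit in at least 2 libraries. A pair of libraries thus borrows its spread from the other groups. On simulated data the fit missed small changes. For KCl in NT it also missed most of the larger changes at DIV7 and many of them at DIV18. In the simulated comparisons other than NT at DIV7, it called more unchanged sites than the adjusted p states. Their share among the calls was larger for KCl in NT at DIV18 and in DMSO at 30 min than over the 5 genotypes. Weak calls and the counts within single genotypes or drugs are thus less firm than their p. Covered shares were tested by exact permutation within genotype or drug. Gene ends came from RefSeq, and the strands of Egr2 and Egr4 from its promoter table. The + strand of Egr1 and Egr3, on which their distances past the 3′ end rest, is general knowledge of these genes and not from the tables used here. Sites named are those at the starts, up to 5 more per gene by the smallest adjusted p over the KCl comparisons, and those said to be named after their values were seen. The members, gene lists and tests were chosen with earlier results of these data known, so no list is independent support. Replicate libraries correlated at 0.910 to 0.983. Alternatives were intervals in place of summits, a summit within 500 bp, the top 75000 summits, other filters, the number of summits as a covariate, a replicate block and leaving out each library.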

Additional observations from a re-analysis of the deposited data

Results flagged for a closer look

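With 2 libraries a group, single libraries could not be checked for standing apart, and the results listed here are differences in KCl response between drugs, times or genotypes that limma called over all sites. At Egr1, the response at 30 min minus that at 10 min in DMSO was −1.82 at the site starting at 34864348, −1.40 at 34863823 and −1.93 at 34863318. In FHT1015 it was −1.54 at 34863823. At 34863318 the 10 min response in FHT1015 minus that in DMSO was −0.96. Past the Egr1 3′ end, at 34868238, the 30 min response was 1.45 higher in FHT1015 than in DMSO and 1.49 higher at 30 than at 10 min in FHT1015.

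At Egr2, FHT1015 minus DMSO was −0.87 at the upstream start (67535131) at 10 min, and −1.01 and −0.67 at 10 and 30 min at 67538762 in the gene. At 67541589, 67542860, 67540136 and 67542107 the 30 min response in FHT1015 minus that in DMSO was −0.69, −0.65, −0.54 and −0.41. Minus its own 10 min response it was the same −0.69, −0.65, −0.54 and −0.41. Neither the DMSO response at 30 min nor the FHT1015 response at 10 min changed the score at these sites. Both sets of values are thus the same drop in FHT1015 at 30 min, and not separate differences.

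At the Egr3 start (70077287), vector minus NT was −5.03 and WT minus vector 4.97, in the sites where vector libraries with KCl had no summit. Past the Egr3 3′ end, FHT1015 minus DMSO at 30 min was 0.60 at 70094442 and 0.69 at 70095956, and the 30 min response exceeded the 10 min response by 0.61 in DMSO and 1.21 in FHT1015 at 70094442 and by 1.26 in FHT1015 at 70095956.

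At Egr4, FHT1015 minus DMSO in the gene (85511643) was −0.54 at 10 min and −0.71 at 30 min. In Cct7, in the outer part of the Egr4 locus, it was −0.99 at 85468265, which overlaps the gene's end, and −0.70 at 85466286 at 30 min, where the response at 30 min minus that at 10 min in FHT1015 was −0.83 and −0.70.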

How the results depend on the processing

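Counts of called Egr sites were recomputed for 20 comparisons under each setting, and counts that moved by over 1.5 times are given first by comparison and then by setting. By interval at 1 bp of overlap, KCl at 10 min in FHT1015 gave 41 in place of 13, KCl at 30 min in DMSO 64 (62 up, 2 down) in place of 26 (21 up, 5 down), KCl in S586E 62 in place of 39, KCl in NT at DIV7 13 in place of 7, vector against NT 5 in place of 10, WT against vector 6 in place of 11, the FHT1015 effect on the 10 min response 4 in place of 9, and S586A and S586E against WT 1 and 5 in place of 0. At 50% overlap the same list gave 32, 62, 61, 15, 4, 6, 5 and, for S586E against WT, 5, with 9 for KCl in Arid2KO in place of 5, 40 (18 up, 22 down) for FHT1015 against DMSO in place of 68 (44 up, 24 down) and 19 (4 up, 15 down) for its effect on the 30 min response in place of 34 (16 up, 18 down). With the number of summits as a covariate, FHT1015 against DMSO gave 23 (9 up, 14 down), KCl in Arid2KO and NT at DIV7 0 and 0, both vector comparisons 6 and 6, and the 10 min response 5. Without a filter, both DIV7 knockout experiment counts were 0, and S586A and S586E against WT 1 and 1. Requiring a summit in 50% of libraries gave 25 for KCl at 30 min in FHT1015 in place of 56, 16 for the 30 min response and 8 for Arid2KO. A summit within 500 bp gave 2 and 2 for KCl in Arid2KO and NT at DIV7, 7 for WT against vector and 1 for S586E against WT. The top 75000 summits gave 14 for KCl at 30 min in DMSO, 18 in FHT1015, 38 for FHT1015 against DMSO, 11 for the 30 min response and 3 for Arid2KO. The sign turned at the upstream Egr2 start with 30 min of KCl by interval (0.39 in DMSO, 0.35 in FHT1015), at the Egr3 start in FHT1015 at 10 min (1.04 by interval, 0.93 within 500 bp), and at the Egr3 start in vector neurons (3.16 by interval, 4.28 within 500 bp). For these the cause was not tested, other than that no summit of the vector libraries fell in the 500 bp. Deviations of same-numbered libraries had median correlations of 0.003 and 0.010 in the drug and Arid2 experiments. At DIV18 all 45 correlations between groups were above 0 (0.028 to 0.169, median 0.095) and 16 of them over 0.1, a hint from the data that DIV18 numbers share something. The correlations did not all pass 0.1, and no label names what is shared, so numbers were not taken to pair libraries. A replicate block moved none of the 20 counts by over 1.5 times (97 became 101 for KCl over genotypes) and ended 2 of the 39 calls among 60 changes at start sites, 1.75 at Egr1 in NT at DIV7 and 0.59 at the upstream Egr2 start in DMSO at 10 min. Leaving out single libraries gave 13 to 17 (KCl 10 min, DMSO), 3 to 6 (KCl 10 min, FHT1015), 20 to 21 (KCl 30 min, DMSO), 36 to 59 (KCl 30 min, FHT1015), 61 to 90 (FHT1015 against DMSO), 2 to 5 and 21 to 47 (its effect on the 10 and 30 min responses), 0 to 0 (KCl in Arid2KO, KCl in NT at DIV7, Arid2KO against NT), 29 to 43 (S586E), 29 to 34 (S586A), 38 to 46 (WT), 44 to 51 (vector), 45 to 56 (NT), 93 to 99 (all genotypes), 6 to 10 (both vector comparisons), 0 to 2 (S586A against WT) and 0 to 5 (S586E against WT). A lone library is then assumed to vary like the other groups. Read depth was not known, so weak summits are limited by list length, and no floor can be given.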
